A study of Mus musculus with 6 samples.

Results

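The genes described here are 49 genes of cell adhesion and its link to the actin cytoskeleton: 11 integrins, 16 focal adhesion adaptors and kinases, 7 junction proteins, and 15 actins and actin regulators. They were chosen by symbol, and each was represented by the brightest probe set annotated with that symbol alone. Of the 49 genes, 46 had such a probe set, out of 19938 genes with one on the array. After the dimmest 40% of genes were left out, 45 of the 49 were tested among 11963 genes. Ptk2 (focal adhesion kinase), Rock2 and Actg1 had no probe set of their own, and Itga8 was too dim to be tested.

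The RNA was that of visceral fat, the epididymal white adipose tissue (eWAT), of male C57BL6/J animals. They had started a high-fat diet (HFD) at 6 weeks of age and stayed on it for 12 weeks. In the rAAV-Lmo3 group, recombinant adeno-associated virus carrying Lmo3, a LIM-domain transcriptional cofactor, had been injected into both epididymal fat pads, and in the rAAV-YFP group the same kind of virus carrying yellow fluorescent protein. Each group had 3 arrays, each of RNA pooled from 2 mice, and all mice received a virus and the HFD, so no group is free of either. The methods state that both transgenes were driven by the CMV enhancer with the chicken β-actin promoter, a promoter that is not specific to adipocytes.

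Integrins are paired α and β chains that span the plasma membrane and bind collagen, laminin, fibronectin and other matrix proteins. Inside the cell, talin and kindlin activate them, and adaptors such as vinculin, α-actinin, filamin and the complex of integrin-linked kinase, PINCH and parvin tie them to actin filaments. RhoA and its kinases ROCK1 and ROCK2 set the tension on those filaments through myosin, while catenins and plakoglobin do for cadherin contacts between cells what the adaptors do for integrins. In adipose tissue, an expanding adipocyte is held in a basement membrane of collagen and laminin, and the vessel wall and infiltrating macrophages carry much of the same machinery.

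Lmo3 itself had intensities of 24, 26 and 24 on the rAAV-Lmo3 arrays and 25, 24 and 24 on the rAAV-YFP arrays. All of these lay under the limit of 114 for dim genes. That probe set therefore gave no check of the labels. The 7 adipocyte markers tested were bright, with mean intensities of 4880 to 11440. Array rAAV-Lmo3 1 and array rAAV-YFP 2 stood apart, correlating with the others at 0.986 and 0.988 on average, against 0.990 to 0.991 for the remaining 4. In a bulk sample, fewer cells of a type and less RNA per cell cannot be told apart.

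Over the 45 tested members, differences of the log2 means (rAAV-Lmo3 minus rAAV-YFP) ran from -0.57 for Jup to 0.34 for Itga7, with a median of -0.08, against a median of 0.00 over all 11963 genes. The difference was below 0 for 36 of 45 members (80.0%) and for 49.7% of all genes. At an unadjusted limma p under 0.05, 7 members (15.6%) were lower in rAAV-Lmo3 tissue and 0 were higher, whereas 2.40% of all genes were lower and 2.27% higher. No member passed the Benjamini-Hochberg threshold of 0.05 over all genes (smallest adjusted p = 0.970 in limma), nor did any other gene (0% of 11963). None of the differences is therefore called a change. The 3 rAAV-Lmo3 arrays all lay under the 3 rAAV-YFP arrays for 10 members (22.2%), compared with 5.95% of all genes, and all above them for 0 members, compared with 4.53%. Members share arrays and vary together, so these counts describe the list and are not independent observations. Without both arrays that stood apart, 36 of 45 members were still below 0 with a median of -0.07, but only 1 member was lower at an unadjusted p under 0.05 (Tln2, 2.22% of members against 1.84% of all genes) and 1 was higher (Itga7, against 2.36% of all genes), on 4 arrays. Without rAAV-Lmo3 1 alone, 32 members were below 0, with a median of -0.05.

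**Figure D1:**
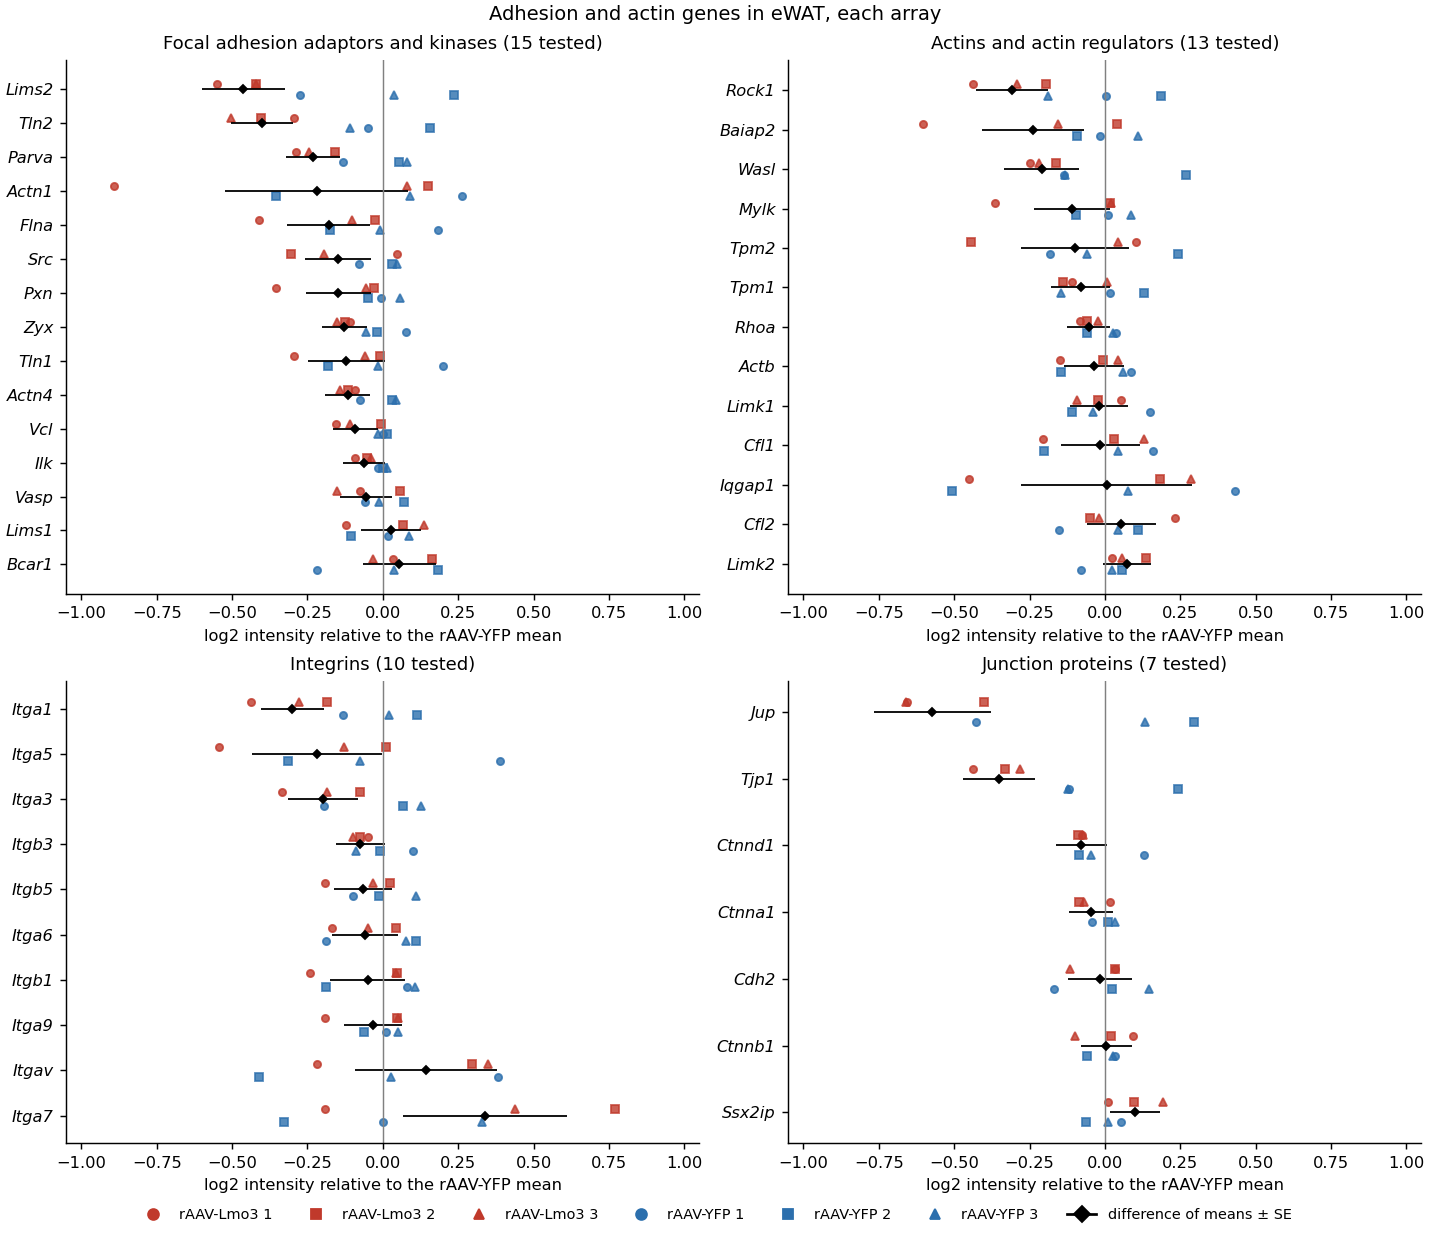
Log2 intensity of each of the 45 tested members on each array, by class, on a horizontal axis in log2 units whose 0 is the rAAV-YFP mean. Red symbols are rAAV-Lmo3 pools, blue symbols rAAV-YFP pools, and black diamonds the difference of the means ± SE from limma (n = 3 per group). Most diamonds lie left of 0, and the members with the widest spread, such as Actn1 and Iqgap1, are spread by single arrays in each group.

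The 7 members that were lower at an unadjusted p under 0.05 came from all 4 classes: Itga1 among the integrins, Tln2, Parva and Lims2 among the adaptors, Jup and Tjp1 among the junction proteins, and Rock1 among the actin regulators. Their levels were 14.8% to 32.8% lower. Leaving out single arrays or changing the processing ended this for several of them. Of 16 alternative settings, Tln2 kept an unadjusted p under 0.05 in all 16, Lims2 in 15, Tjp1 in 12, Itga1 in 11, Jup in 10, Parva in 9 and Rock1 in 8. Leaving out rAAV-Lmo3 1 alone, rAAV-Lmo3 3 alone or rAAV-YFP 2 alone each ended it for Itga1, Parva, Jup and Rock1. So did leaving out rAAV-YFP 3 for Itga1, Parva and Jup, and leaving out rAAV-YFP 1 for Rock1. For Tjp1, leaving out rAAV-Lmo3 1 or rAAV-Lmo3 2 ended it. The differences themselves stayed close to those on 6 arrays without rAAV-Lmo3 3 (Itga1 -0.31, Parva -0.22, Jup -0.53, Rock1 -0.32) and were nearer 0 without rAAV-YFP 2 (Itga1 -0.24, Parva -0.20, Jup -0.42, Rock1 -0.21). All 7 were still below 0 without both arrays that stood apart.

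Promoter windows are shown for those of these 7 genes whose sequence could be printed, Itga1, Jup and Tjp1, because they are the lower members for which shared sequence features can be read. Vcl (vinculin) is set beside them as the member with its own probe set whose window holds a CArG box, the serum response factor motif known from actin and muscle genes. Each line holds the 250 bases before the RefSeq start site on the gene's own strand (GRCm38.p6), at chr13:115101965-115102214 (minus) for Itga1, chr11:100397791-100398040 (minus) for Jup, chr7:65371245-65371494 (minus) for Tjp1 and chr14:20929148-20929397 (plus) for Vcl. Capitals mark matches on either strand to the GC box (GGGCGG), the CCAAT box (CCAAT), the TEAD motif (CATTCC) and the CArG box.
Itga1: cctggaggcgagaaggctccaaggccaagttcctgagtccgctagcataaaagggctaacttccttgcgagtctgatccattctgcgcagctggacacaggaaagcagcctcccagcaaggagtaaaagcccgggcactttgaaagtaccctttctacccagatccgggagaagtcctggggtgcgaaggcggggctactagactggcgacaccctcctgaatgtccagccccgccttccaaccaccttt
Jup: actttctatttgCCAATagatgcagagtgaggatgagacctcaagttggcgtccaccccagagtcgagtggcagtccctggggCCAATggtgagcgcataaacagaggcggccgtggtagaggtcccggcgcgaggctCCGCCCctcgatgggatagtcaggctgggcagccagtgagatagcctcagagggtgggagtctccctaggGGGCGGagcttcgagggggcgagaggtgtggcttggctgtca
Tjp1: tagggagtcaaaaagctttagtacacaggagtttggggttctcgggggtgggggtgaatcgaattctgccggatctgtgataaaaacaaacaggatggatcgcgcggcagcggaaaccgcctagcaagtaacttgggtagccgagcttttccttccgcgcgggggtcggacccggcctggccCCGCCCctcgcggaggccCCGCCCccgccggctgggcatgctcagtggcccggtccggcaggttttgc
Vcl: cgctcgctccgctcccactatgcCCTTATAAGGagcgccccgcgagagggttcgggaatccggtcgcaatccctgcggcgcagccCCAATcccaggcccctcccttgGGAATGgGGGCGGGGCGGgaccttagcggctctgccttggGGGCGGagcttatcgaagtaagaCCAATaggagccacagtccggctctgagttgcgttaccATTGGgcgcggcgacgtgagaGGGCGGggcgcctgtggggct
The Itga1 window held 0 matches to the 4 motifs. The Jup window held 2 GC boxes and 2 CCAAT boxes, and the Tjp1 window held 2 GC boxes. The Vcl window held 4 GC boxes, 2 of which overlap, 3 CCAAT boxes, 1 TEAD motif and 1 CArG box. A GC box was found in 28 of 37 members with a window and in 32.7% of 32851 windows of the same length, a CCAAT box in 18 members and 33.8% of windows, a TEAD motif in 6 members and 12.6%, and a CArG box in 2 members, Vcl and Actg1, and 1.47%. A member was counted if any of its windows matched, whereas the shares are over single windows of all entries, expressed or not. The counts and the shares are therefore not like for like. These matches describe the letters only. Vcl, with intensities of 1234, 1368 and 1274 in rAAV-Lmo3 tissue and 1376, 1388 and 1360 in rAAV-YFP tissue, differed by -0.09 ± 0.08 on the log2 scale (SE, n = 3 per group), with groups that overlapped.

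Of the 10 tested integrins, 8 were below 0, with a median of -0.06 on the log2 scale. Without rAAV-Lmo3 1, 6 were below 0 and the median was -0.0035, and without both arrays that stood apart 6 were below 0 and the median was -0.03. Itga1, the α1 chain of a collagen receptor, was at intensities of 1109, 1321 and 1239 in the rAAV-Lmo3 pools and 1369, 1623 and 1525 in the rAAV-YFP pools. All rAAV-Lmo3 pools were under all rAAV-YFP pools, by a narrow margin between 1321 and 1369. The log2 difference was -0.30 ± 0.10 (unadjusted p = 0.0248 and adjusted p = 0.970 in limma), and -0.18 without both arrays that stood apart. It was the only integrin of the 10 with groups that did not overlap.

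The partner of most α chains, Itgb1, had intensities of 2138, 2615 and 2607 in rAAV-Lmo3 tissue and 2672, 2220 and 2725 in rAAV-YFP tissue, a log2 difference of -0.05 ± 0.12. In each group the array that stood apart was the low one, and the other 4 arrays lay between 2607 and 2725. Itga8, the α8 chain, had 57, 56 and 72 in rAAV-Lmo3 tissue and 59, 65 and 73 in rAAV-YFP tissue, all under the limit for dim genes. Itgb3 and Itgb5, the β chains of vitronectin receptors, differed by -0.07 ± 0.08 and -0.07 ± 0.10, the laminin receptor chains Itga3 and Itga6 by -0.20 ± 0.12 and -0.06 ± 0.11, and Itga9 by -0.03 ± 0.10. The 2 integrins above 0 were Itga7 and Itgav, and they were the widest spread. Itga7, a laminin receptor chain of muscle and other cells, had 827, 1614 and 1281 in rAAV-Lmo3 tissue and 946, 753 and 1187 in rAAV-YFP tissue. Its log2 difference was 0.34 ± 0.27, and 0.60 without rAAV-Lmo3 1. Itgav, the α chain shared by the vitronectin receptors, had 922, 1315 and 1366 in rAAV-Lmo3 tissue and 1397, 806 and 1093 in rAAV-YFP tissue, a difference of 0.14 ± 0.24. Both overlapped between the groups. The integrins other than Itga1, Itga8 and Itgb1 were named after their values were seen.

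**Figure D2:**
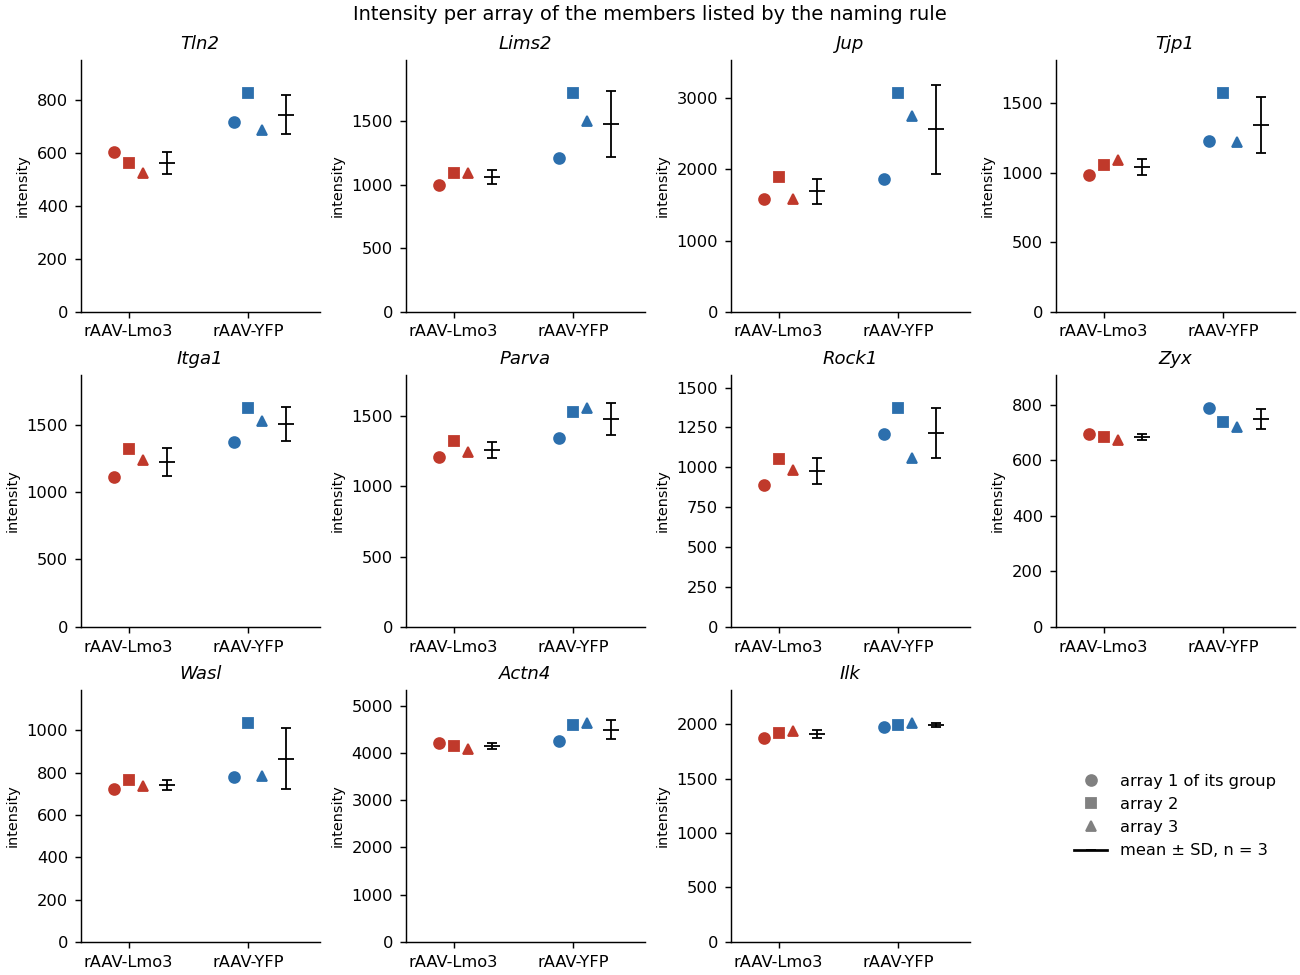
Intensity on each array (vertical axis, linear and from 0) of the 11 members with an unadjusted p under 0.05 or with groups that did not overlap, rAAV-Lmo3 left and rAAV-YFP right, with the mean ± SD (n = 3 pools). Panels are ordered by p, from Tln2, where the rAAV-Lmo3 pools reach at most 605 and the rAAV-YFP pools at least 688, to Ilk, where the gap is 1940 against 1972. Jup is the panel in which the groups overlap.

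The adaptors and kinases had the lowest median of the 4 classes, -0.13 on the log2 scale, with 13 of 15 tested members below 0, 3 lower at an unadjusted p under 0.05 and 6 with groups that did not overlap (40% of the class, against 5.95% of all genes). Without rAAV-Lmo3 1, 12 were below 0 and the median was -0.06, and without both arrays 13 were below 0 and the median was -0.11. Tln2, the second talin, which links integrin tails to actin, was at 605, 561 and 523 in rAAV-Lmo3 tissue and 717, 827 and 688 in rAAV-YFP tissue. These groups did not overlap, and the log2 difference was -0.40 ± 0.10 (24.2% lower, unadjusted p = 0.00653, adjusted p = 0.970 in limma). It stayed at -0.37 without both arrays that stood apart. Tln1, the talin of most cells, had 1408, 1719 and 1660 in rAAV-Lmo3 tissue and 1984, 1524 and 1709 in rAAV-YFP tissue, with overlap and a difference of -0.12 ± 0.13.

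Integrin-linked kinase, PINCH and parvin form 1 complex at the integrin tail. Lims2, which encodes the second PINCH protein, was at 998, 1092 and 1091 in rAAV-Lmo3 tissue and 1207, 1722 and 1500 in rAAV-YFP tissue. The rAAV-Lmo3 pools were close together and all under the rAAV-YFP pools, whose own range was wide. The log2 difference was -0.46 ± 0.14 (27.5% lower, unadjusted p = 0.0127 in limma), and -0.30 without both arrays that stood apart. Parva (α-parvin) had 1206, 1319 and 1243 in rAAV-Lmo3 tissue and 1344, 1529 and 1556 in rAAV-YFP tissue, a log2 difference of -0.23 ± 0.09 without overlap. Ilk (integrin-linked kinase), which holds the complex together, had 1868, 1919 and 1940 in rAAV-Lmo3 tissue and 1972, 1995 and 2010 in rAAV-YFP tissue. Its groups did not overlap either, but the difference was only -0.06 ± 0.07 (4.19% lower). That SE is limma's, moderated by the spread over all genes. The SDs of Ilk between pools were 0.03 in the rAAV-Lmo3 group and 0.01 in the rAAV-YFP group. The methods' t-test, which is not moderated, gave an unadjusted p of 0.0269. Lims1, the first PINCH, had 782, 891 and 937 in rAAV-Lmo3 tissue and 861, 792 and 905 in rAAV-YFP tissue, with overlap and a difference of 0.03 ± 0.10.

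Zyx and Actn4 also had groups that did not overlap, at a limma p above the unadjusted threshold. Zyx (zyxin, a LIM protein that gathers at strained actin fibres) had 695, 686 and 674 in rAAV-Lmo3 tissue and 789, 738 and 721 in rAAV-YFP tissue, a log2 difference of -0.13 ± 0.07. Actn4 (α-actinin-4, an actin crosslinker) had 4211, 4142 and 4075 in rAAV-Lmo3 tissue and 4259, 4593 and 4634 in rAAV-YFP tissue, a difference of -0.12 ± 0.07. Its relative Actn1 was at 792, 1628 and 1553 in rAAV-Lmo3 tissue and 1760, 1149 and 1564 in rAAV-YFP tissue. There the array that stood apart in each group was the low one, the groups overlapped, and the difference was -0.22 ± 0.30. The remaining 5 tested adaptors and kinases overlapped between the groups and were likewise named with their values known. They ran from -0.18 ± 0.14 for Flna, the actin crosslinker filamin A, to 0.05 ± 0.12 for the scaffold Bcar1 (p130Cas), with Src at -0.15, the paxillin gene Pxn at -0.15 and Vasp, which lengthens actin filaments, at -0.06.

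Of the 7 junction proteins, 5 were below 0, with a median of -0.05 (6 and -0.07 without both arrays). The 2 that were lower at an unadjusted p under 0.05 differed by more than any of the other 5. Jup (plakoglobin, the catenin of desmosomes and adherens junctions) was at 1590, 1898 and 1587 in rAAV-Lmo3 tissue and 1864, 3076 and 2747 in rAAV-YFP tissue. Array rAAV-YFP 1 lay among the rAAV-Lmo3 pools, so the groups overlapped, and the other rAAV-YFP pools were far above. The log2 difference was -0.57 ± 0.19 (32.8% lower, unadjusted p = 0.0222 in limma), and -0.38 without both arrays that stood apart. Tjp1 (ZO-1, which joins tight junctions to actin) had 982, 1057 and 1094 in rAAV-Lmo3 tissue and 1227, 1574 and 1222 in rAAV-YFP tissue. No pools overlapped, and the log2 difference was -0.35 ± 0.12 (unadjusted p = 0.0234 in limma), or -0.19 without both arrays.

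Ctnnb1 (β-catenin, the close relative of plakoglobin) had 2341, 2223 and 2048 in rAAV-Lmo3 tissue and 2244, 2106 and 2233 in rAAV-YFP tissue, a log2 difference of 0.00 ± 0.08 whose sign turned under some settings. Cdh2 (N-cadherin), Ctnna1 (α-catenin) and Ctnnd1 (p120-catenin) differed by -0.02, -0.05 and -0.08, and Ssx2ip, an adaptor at afadin-based junctions, by 0.10 ± 0.08. All of these overlapped between the groups, and those other than Ctnnb1 were named after their values were seen.

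Among the 13 tested actins and actin regulators, 10 were below 0, with a median of -0.05 (11 and -0.05 without both arrays). Rock1, the RhoA-dependent kinase that raises actomyosin tension, was at 891, 1052 and 986 in rAAV-Lmo3 tissue and 1208, 1372 and 1058 in rAAV-YFP tissue. The groups were separated by the gap between 1052 and 1058 only. The log2 difference was -0.31 ± 0.12 (19.2% lower, unadjusted p = 0.0388 in limma), and -0.15 without both arrays that stood apart. Wasl (N-WASP, which starts branched actin through the Arp2/3 complex) had 723, 767 and 738 in rAAV-Lmo3 tissue and 782, 1035 and 783 in rAAV-YFP tissue, a difference of -0.21 ± 0.13 that was -0.06 without both arrays.

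Rhoa, the GTPase that activates ROCK, had 4796, 4876 and 5004 in rAAV-Lmo3 tissue and 5205, 4869 and 5171 in rAAV-YFP tissue, -0.05 ± 0.07, and a second Rhoa probe set gave -0.04. The LIM kinases Limk1 and Limk2, which inactivate cofilin, differed by -0.02 and 0.07, the cofilins Cfl1 and Cfl2, which sever actin filaments, by -0.01 and 0.05, and Mylk (myosin light chain kinase) by -0.11 ± 0.13. Actb (β-actin) had 12678, 13992 and 14496 in rAAV-Lmo3 tissue and 14917, 12699 and 14656 in rAAV-YFP tissue, a difference of -0.04 ± 0.10. Actg1 (γ-actin) could be read only together with Actb, on 4 shared probe sets that differed by -0.03 to -0.06. The tropomyosins Tpm1 and Tpm2 differed by -0.08 and -0.10, and Baiap2, an adaptor that bends membranes towards filopodia, by -0.24 ± 0.17. All the genes of this paragraph overlapped between the groups, and those other than Actb were named after their values were seen.

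For the talins, the PINCH proteins, plakoglobin with β-catenin, and the α-actinins Actn1 and Actn4, the ratio of the relatives was taken within each array, on the log2 scale and relative to the rAAV-YFP mean. These pairs were taken because a gene in each had an unadjusted p under 0.05 or groups without overlap on these same arrays. A lower level of that gene against its relative was therefore favoured by the choice, and the p-values give no separate support. Lims2 over Lims1 was at -0.43, -0.49 and -0.56 on the rAAV-Lmo3 arrays and -0.29, 0.34 and -0.05 on the rAAV-YFP arrays. The groups did not overlap, and the ratio was lower by 0.49 ± 0.19 (two-sided exact permutation p = 0.1, the lowest value possible with 3 arrays against 3). Without single arrays this difference ran from -0.64 to -0.32. Jup over Ctnnb1 differed by -0.58 ± 0.26 (exact permutation p = 0.2) and Tln2 over Tln1 by -0.28 ± 0.23 (exact permutation p = 0.3), both with overlap, and without single arrays they ran from -0.81 to -0.40 and from -0.42 to -0.11. Actn4 over Actn1 differed by 0.10 ± 0.41 (exact permutation p = 0.8) and turned sign without single arrays, from -0.24 to 0.30. Adjusted over the 4 ratios, the p-values were 0.4, 0.4, 0.4 and 0.8. Rock1 could not be set against Rock2.

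**Figure D3:**
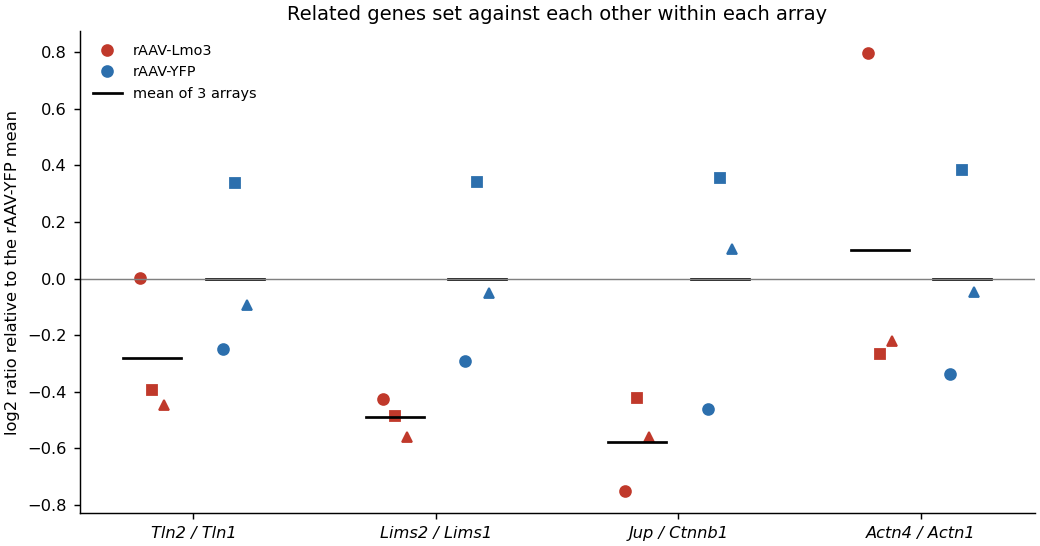
Log2 ratio of related genes on each array relative to the rAAV-YFP mean (vertical axis, log2 units), with rAAV-Lmo3 in red left of rAAV-YFP in blue, circles, squares and triangles for arrays 1, 2 and 3 of a group, and a black line for the mean of 3 arrays. For Lims2 over Lims1 every red point lies under every blue point, and for Actn4 over Actn1 array rAAV-Lmo3 1 alone lies at 0.80.

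The members were counted by a pair of patterns across the arrays that stood apart. On rAAV-Lmo3 1, 33 of 45 members were lower than the mean of the other rAAV-Lmo3 arrays. Of the 45 members, 18 (40%) were low on both rAAV-Lmo3 1 and rAAV-YFP 2 within their groups. That share is near the 35.1% of all genes, so this first pattern is not particular to the members. The second pattern, low on rAAV-Lmo3 1 and high on rAAV-YFP 2, held 15 members (33.3%), against 14.1% of all genes. Of the 10 tested integrins, 6 fell in the first pattern. Of the 7 members lower at an unadjusted p under 0.05, 6 fell in the second. Tln2 was the exception, being higher on both arrays than on the rest of their groups. The second pattern itself lowers the difference between the groups. Choosing the lower members on these same arrays therefore favoured it, and the 6 of 7 is no separate finding about them.

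The members lowest on both arrays together were Actn1, Iqgap1, Itga7, Itgav and Itga5, named after their values were seen. Actn1 was 1.01 lower on the log2 scale on rAAV-Lmo3 1 and 0.53 lower on rAAV-YFP 2 than on the rest of its group. Iqgap1, a scaffold that binds actin, had 1584, 2457 and 2639 in rAAV-Lmo3 tissue and 2920, 1525 and 2281 in rAAV-YFP tissue, and a group difference of 0.01 ± 0.28. Itga5, the fibronectin receptor chain, had 471, 691 and 628 in rAAV-Lmo3 tissue and 898, 552 and 651 in rAAV-YFP tissue, and a difference of -0.22 ± 0.22. For these genes 1 array in each group was low, and the spread within a group exceeded the difference between the groups.

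Markers of other cell types moved with these patterns. The summed intensity of 8 macrophage markers was 13723, 20103 and 21785 in rAAV-Lmo3 tissue and 23681, 12132 and 17553 in rAAV-YFP tissue, lowest on the 2 arrays on which Actn1, Iqgap1 and the 3 integrins were low. Of the 8 macrophage markers, 7 were low on both arrays. Between the groups only 1 of the 8 was below 0, with a median log2 difference of 0.09. This was Mertk, at -0.27 ± 0.10 (unadjusted p = 0.0383 in limma). Without both arrays 3 were below 0 and the median was 0.08. The 7 endothelial markers summed to 8300, 10192 and 9125 in rAAV-Lmo3 tissue and 9291, 11870 and 10677 in rAAV-YFP tissue. They were lowest on rAAV-Lmo3 1 and highest on rAAV-YFP 2, as were 4 of the 7 lower members (Itga1, Lims2, Tjp1 and Rock1). For those members the choice as lower on these arrays favoured this order. Of the 7 endothelial markers, 6 were below 0, with a median log2 difference of -0.23. At an unadjusted limma p under 0.05, 1 of them (14.3%) was lower, against 2.40% of all genes. Without both arrays 4 were below 0 and the median was -0.07. The smooth muscle and pericyte markers summed to 5335, 8020 and 7460 in rAAV-Lmo3 tissue and 7250, 7794 and 9017 in rAAV-YFP tissue. All 7 tested markers were below 0, with a median log2 difference of -0.12, and 0 were lower at an unadjusted p under 0.05. Without both arrays 5 were below 0 and the median was -0.04. Of the 7 adipocyte markers 6 were below 0, with a median of -0.04 and sums of 64365, 57157 and 52132 in rAAV-Lmo3 tissue and 55419, 65453 and 60823 in rAAV-YFP tissue, highest on the arrays that stood apart. Skeletal muscle markers were highest on the same arrays, with sums of 2284, 1668 and 1532 in rAAV-Lmo3 tissue and 1563, 2412 and 1566 in rAAV-YFP tissue. Fibroblast and progenitor markers were lowest on them, with sums of 13201, 14781 and 16326 in rAAV-Lmo3 tissue and 15807, 12358 and 14676 in rAAV-YFP tissue. Mesothelial markers were 6 of 6 below 0, with a median of -0.33 that was -0.43 without both arrays. Of these, 0 were lower at an unadjusted p under 0.05, and their mean intensities were only 148 to 315. Their sums were 1173, 953 and 1265 in rAAV-Lmo3 tissue and 1027, 1254 and 2235 in rAAV-YFP tissue. The sum was high on rAAV-YFP 3 only, an array that weighs more once rAAV-YFP 2 is left out. The 5 epididymal epithelium markers with a probe set were all dim. Of the T cell markers only Cd3e was tested, with 183, 245 and 220 in rAAV-Lmo3 tissue and 268, 248 and 355 in rAAV-YFP tissue, a log2 difference of -0.42 ± 0.17 (unadjusted p = 0.0428 in limma). The part of these cell types in the differences of the members was not tested.

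**Figure D4:**
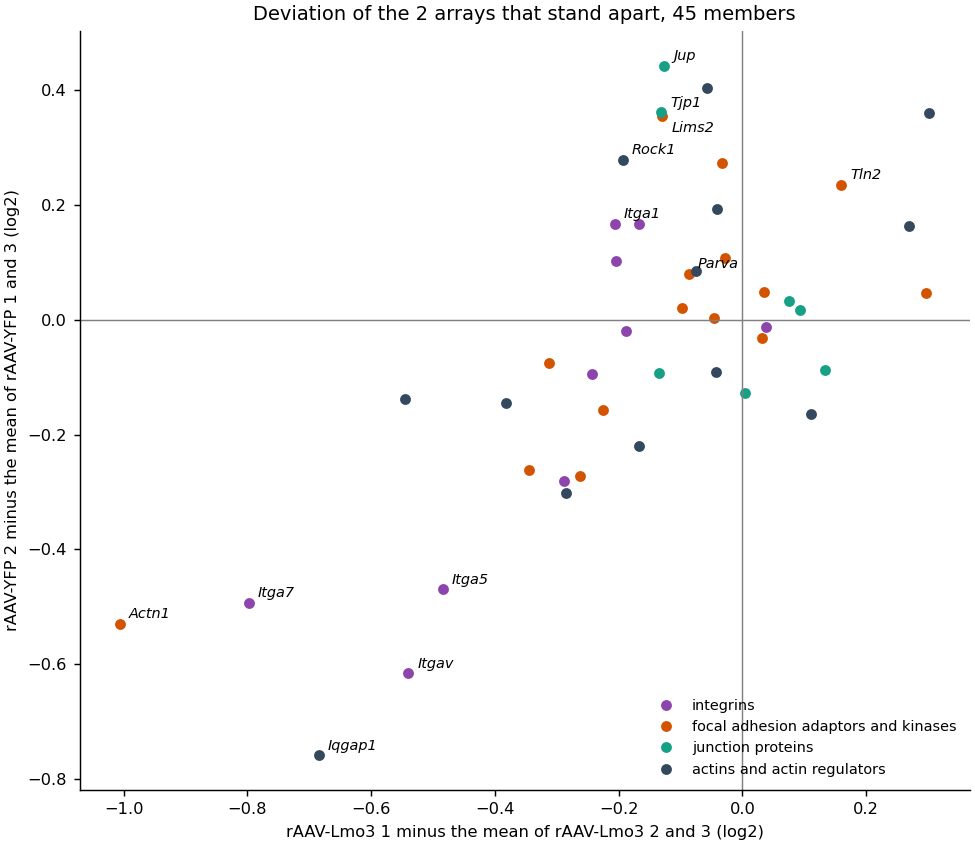
Deviation of array rAAV-Lmo3 1 from the mean of the other rAAV-Lmo3 arrays (horizontal axis, log2) against that of array rAAV-YFP 2 from the mean of the other rAAV-YFP arrays (vertical axis, log2), 1 point for each of the 45 tested members, coloured by class. Actn1, Iqgap1, Itga7, Itgav and Itga5 lie far towards the lower left. Of the 7 members lower at an unadjusted p under 0.05, 6 lie in the upper left, where rAAV-Lmo3 1 is low and rAAV-YFP 2 high. That position itself lowers the difference between the groups, so the choice of lower members favoured it.

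The rest of the adhesion machinery was read from 3 further lists. Their counts stand beside 49.7% below 0, 2.40% lower and 2.27% higher over all genes. Of 47 tested genes among other integrins and adhesion genes, 32 (68.1%) were below 0, 3 (6.38%) were lower and 1 (2.13%) was higher at an unadjusted p under 0.05, with a median of -0.08. Without both arrays that stood apart, 32 were below 0 and the median was -0.06. Sorbs3 (vinexin, a vinculin-binding adaptor) had 297, 314 and 343 in rAAV-Lmo3 tissue and 367, 453 and 413 in rAAV-YFP tissue, a log2 difference of -0.37 ± 0.11 without overlap. Itgad, an integrin chain of leukocytes, was the higher one, with 312, 326 and 321 in rAAV-Lmo3 tissue and 272, 253 and 278 in rAAV-YFP tissue, a difference of 0.26 ± 0.08. As the mean over its 2 probe sets it was 0.43 and no longer under the unadjusted threshold. The other 2 lower genes, named after their values were seen, were the focal adhesion protein Tns1 (tensin-1, -0.28 ± 0.09) and Rsu1 (-0.17 ± 0.07), which binds PINCH. The Tns1 value is that of the brightest of its 6 probe sets.

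Of 53 tested genes among other actin cytoskeleton genes, 37 (69.8%) were below 0, with a median of -0.08 (35 and -0.04 without both arrays). At an unadjusted p under 0.05, 1 (1.89%) was lower, a share under that of all genes. This was Ezr (ezrin, which ties actin to the plasma membrane), with 378, 424 and 435 in rAAV-Lmo3 tissue and 585, 438 and 611 in rAAV-YFP tissue, a log2 difference of -0.39 ± 0.14 that kept an unadjusted p under 0.05 in 11 of 16 settings. Mrtfb, a coactivator of serum response factor that actin monomers hold back, differed by -0.33 ± 0.16 with overlap. As the mean over its 3 probe sets it differed by -0.27. Of 22 tested genes among other adherens and tight junction genes, 18 (81.8%) were below 0, with a median of -0.14 (15 and -0.08 without both arrays). There Nectin1, an immunoglobulin-like junction protein, was the 1 gene (4.55%) lower at an unadjusted p under 0.05, with 217, 205 and 200 in rAAV-Lmo3 tissue and 235, 237 and 234 in rAAV-YFP tissue, a difference of -0.18 ± 0.07. It kept an unadjusted p under 0.05 in 7 of 15 settings, and lost it with either other normalization and when any single array other than rAAV-Lmo3 1 was left out. Lmo7, an afadin-binding LIM protein, differed by -0.31 ± 0.14 with overlap. None of the genes on the 3 lists passed the adjusted threshold.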

How the data were processed

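Affymetrix mouse Gene ST arrays were hybridized with eWAT RNA, 1 array per pool of 2 mice. The deposited intensity values were made by the authors with RMA in Affymetrix Expression Console 1.1 (background correction, quantile normalization, probe set summary). They are linear and rounded to whole numbers, and log2 was taken here. Groups and replicate numbers came from the sample titles, which name rAAV-YFP as control although the treatment text of the labels names rAAV-LacZ. Of 35556 probe sets, 21789 had exactly 1 symbol.

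Each gene was represented by its brightest probe set over the 6 arrays. The 7975 dimmest genes (40%, under a mean log2 intensity of 6.83) were left out. Intensities of different probe sets are not on 1 scale. They were ranked only to choose a probe set per gene, to leave out dim genes and to name the brightest and dimmest members. In summed marker intensities the bright probe sets weigh most. The other 11963 genes entered a two-sided moderated test (limma 3.58.1, R 4.3.3), adjusted by Benjamini-Hochberg at a threshold of 0.05. The steps were tested on simulated data, with noise independent between arrays and with changes larger than any difference of the members. That test does not show how the steps perform for differences as small as these. Arrays give no counts, so their number limits the precision. The limma SEs and p-values rest on the spread between pools, moderated by the spread over all genes. Differences are rAAV-Lmo3 minus rAAV-YFP, and errors are SEs of that difference unless said otherwise.

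Named genes were those with an unadjusted p under 0.05 or without overlap, the brightest member of each class, the brightest and dimmest integrin, relatives of these, and up to 2 genes per further list with the smallest p. Members and lists were chosen with earlier results of these data known. Alternatives were other centring, a second quantile normalization, array weights, a trend and robust prior, a replicate block, other filters, the mean over probe sets, the methods' t-test, and leaving out each array. Leaving out both arrays that stood apart was chosen after seeing the data. Promoter windows are from RefSeq (GRCm38.p6), which held 37 of the 49 members.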

Additional observations from a re-analysis of the deposited data

How the results depend on the processing

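Under every one of the 16 alternatives 0 genes passed the adjusted threshold, as in limma with all 6 arrays, where 287 genes were lower and 271 higher at an unadjusted p under 0.05. The count of members lower at an unadjusted p under 0.05 was 7, ran from 3 to 7 when single arrays were left out (3 each without rAAV-Lmo3 1, rAAV-Lmo3 3 or rAAV-YFP 2, where 2.31%, 1.17% and 1.18% of all genes were lower, and 4 without rAAV-YFP 3, with 2.34%), and was 1 without both arrays that stood apart, with 1.84%. The count of members higher was 0 and ran from 0 to 1 without single arrays. It was 1 (2.22% of members) without rAAV-Lmo3 1 and also without both, where 2.49% and 2.36% of all genes were higher. Because fewer arrays also give less power, the cause of the lower counts was not tested. The methods' t-test gave 7 lower members as well, but with Zyx, Actn4 and Ilk in place of Jup, Tjp1 and Rock1. The replicate block gave 6 lower members, with Parva at an unadjusted p of 0.0517 and Nectin1 at 0.0875. Deviations of same-numbered arrays correlated at -0.548, -0.398 and 0.263, and those of rAAV-Lmo3 1 and rAAV-YFP 2 at 0.68. With so few arrays, of which some stood apart, these values cannot decide whether the numbers pair the pools. Without single arrays, the median difference ran from -0.139 to -0.0583 for adaptors and kinases, from -0.124 to -0.0368 for actins and actin regulators, and from -0.0776 to -0.0301 for junction proteins, which were at -0.079 with the dimmest 60% of genes left out. Of 23 named genes tested, 5 turned direction under some setting. Ctnnb1 was at -0.0255 after a second quantile normalization, -0.0439 with array weights, -0.0692 without both arrays, and -0.0398 to 0.0566 without single arrays. Without single arrays Actb ran from -0.11 to 0.0191, Itgb1 from -0.144 to 0.0464, Actn1 from -0.404 to 0.115 and Lims1 from -0.0285 to 0.102. Medians do not depend on the prior, the block or the t-test, and array weights were not applied to them.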
